A study of Homo sapiens with 18 samples.

Results

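Knockdown of PDIA5 for 96 h was compared with a control siRNA at the same time in LNCaP, a prostate cancer cell line of human origin that makes prostate-specific antigen. The comparison took in 6 of the 18 RNA-seq libraries of the series and 11685 of 59385 listed genes, namely every gene with a mean RPKM (reads for each kilobase of a gene, relative to the reads of the whole library) of at least 1 over the 18 libraries. The whole study knocked down PDIA5 or PDIA1, whose gene symbol is P4HB, for 48 h or 96 h. All cells were LNCaP in medium with serum, and all received an siRNA by lipid transfection, the controls included. The groups used here were siPDIA5 at 96 h, siPDIA5 at 48 h, siPDIA1 at 96 h, siNC (the control siRNA) at 96 h and siNC at 48 h, with 3 libraries each. A single cell line and 1 siRNA label per target were studied, and no source used here gives the siRNA sequences or says whether a label stands for a pool. Nor is it stated that libraries of 1 group are separate cultures, and p-values therefore measure only the spread between these libraries, which may be technical.

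PDIA5 belongs to the protein disulphide isomerases, enzymes with thioredoxin folds that form, break and rearrange disulphide bonds in proteins entering the endoplasmic reticulum (ER). The load of unfolded protein in the ER is read by the sensors ATF6, IRE1 (gene symbol ERN1) and PERK (gene symbol EIF2AK3). PDIA5 has been linked to the activation of ATF6, which induces chaperones, whereas PERK signals through translation and the transcription factor ATF4, which induces genes of amino acid supply and, later, of cell death. Luminal prostate cells secrete large amounts of disulphide-bonded protein, among them the kallikreins.

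The targeted gene was checked first. PDIA5 (chr3:123067062-123225227, plus strand, GRCh38, GENCODE 29) had 1.33, 1.63 and 1.25 RPKM after siPDIA5, against 15.7, 13.5 and 15.6 RPKM after siNC, so that every siPDIA5 library lay below every siNC library. Its mean after siPDIA5 was 9.39% of the siNC mean, and the log2 fold change was -2.73 ± 0.08 (SE; limma adjusted p = 4.74e-13). At 48 h the values were 1.33 to 1.67 RPKM after siPDIA5 and 13.5 to 14.4 RPKM after siNC, and after siPDIA1 at 96 h they were 14.8 to 17.6 RPKM, above or within the siNC range of that time. Log2 fold changes here are on the log2(RPKM + 1) scale, which makes the changes of low genes look smaller, and genes with a limma adjusted p under 0.05 over all 11685 genes are those said to have risen or fallen.

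The libraries held an estimated 30.8 to 41.9 M reads on genes after siPDIA5 and 31.4 to 34.4 M reads after siNC at 96 h. Mitochondrially encoded transcripts took 12.6% to 13.9% of these reads after siPDIA5 and 10.1% to 11.1% after siNC, and RPKM values are shares of all reads. The first siPDIA1 library at 96 h stood apart from the other 2 of its group, with a root mean square deviation from its group mean of 0.247 on the log2 scale against 0.109 to 0.179 in the other 17 libraries. Epithelial and prostate markers were high at 96 h, with KRT8 at 112 to 121 RPKM after siPDIA5 and 80.2 to 96.6 RPKM after siNC. The basal marker TP63, the leukocyte marker PTPRC and the stromal marker DCN were listed at 0 in all 6 libraries.

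PDIA5 knockdown changed the levels of a wide range of transcripts. Of the 11685 genes, 2433 rose (20.8%) and 3539 fell (30.3%), together 5972 genes or 51.1%, and 259 rose and 209 fell by at least 2-fold on the log2(RPKM + 1) scale. The excess of falls was smaller under other scalings. With median centring 2785 rose and 3086 fell, with quantile normalisation 2818 and 3174, and after rescaling without mitochondrial genes 2736 and 3178. The shares of all tested genes given below are those of the main fit. The 3 siPDIA5 and the 3 siNC libraries did not overlap for 6548 genes (56%), and the median log2 fold change of all tested genes was -0.06. The largest rises and falls named below were chosen only from genes without overlap, so their separation is no further result. Bulk libraries cannot tell fewer cells of a kind from less RNA per cell. Of the 5972 genes, 5608 were protein-coding, as were 9996 of the 11685 tested genes.

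**Figure D1:**
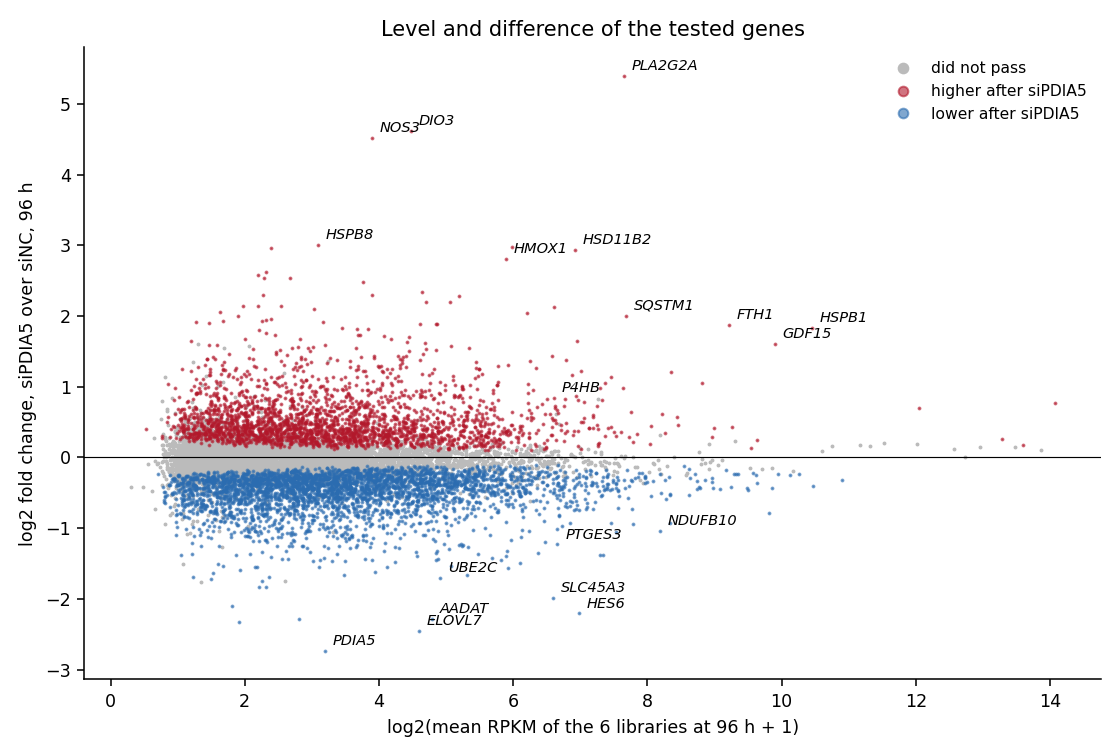
Each point is 1 of the 11685 tested genes, with its mean level in the 6 libraries at 96 h on the horizontal axis and its log2 fold change (siPDIA5 over siNC) on the vertical axis. The 2433 genes that rose are red, the 3539 that fell are blue, and the largest rises (PLA2G2A, DIO3, NOS3) stand far above the largest falls in size.

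Some of the largest rises were in genes that were low or nearly silent in control cells. The filter averaged all 18 libraries, siPDIA5 included, so such genes could pass it through the siPDIA5 libraries in which they were high. PLA2G2A (chr1:19975431-19980416), which encodes a secreted phospholipase A2, had 388, 377 and 414 RPKM after siPDIA5, against 8.54, 7.45 and 9.22 RPKM after siNC. Its ratio of means was 46.8 and its log2 fold change 5.39 ± 0.13 (limma adjusted p = 5.34e-14). DIO3 (chr14:101561351-101563452), the deiodinase that inactivates thyroid hormone, had 38.7, 44.4 and 42.5 RPKM after siPDIA5, against 0.943, 0.765 and 0.539 RPKM after siNC. NOS3 (chr7:150990995-151014588), the endothelial nitric oxide synthase, had 27.3, 28.0 and 26.9 RPKM after siPDIA5, against 0.230, 0.281 and 0.221 RPKM after siNC. Neither gene reached 1 RPKM in any siNC library at 96 h, and both were well above that in every siPDIA5 library, with log2 fold changes of 4.62 ± 0.14 for DIO3 and 4.51 ± 0.11 for NOS3 (limma adjusted p = 7.85e-13 and 7.65e-14). A further pair of genes encode small heat shock proteins, which hold misfolded proteins: HSPB8 had 13.8, 14.4 and 14.3 RPKM after siPDIA5, against 1.003, 0.772 and 0.882 RPKM after siNC, and CRYAB had 8.36, 8.38 and 8.08 RPKM after siPDIA5, against 0.190, 0.186 and 0.176 RPKM after siNC. Their log2 fold changes were 3.01 ± 0.10 for HSPB8 and 2.97 ± 0.09 for CRYAB.

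Several other large rises were in genes of enzymes, secreted proteins and membrane proteins. HSD11B2, which converts cortisol to cortisone, averaged 213 ± 15.5 RPKM after siPDIA5 and 27.0 ± 1.02 RPKM after siNC (SD, n = 3 each; log2 fold change 2.93 ± 0.07). HMOX1, the haem oxygenase induced by oxidative stress, had 100.1, 101 and 106 RPKM after siPDIA5, against 16.8, 12.4 and 12.7 RPKM after siNC (log2 fold change 2.80 ± 0.11). CAMK2N1, an inhibitor of the kinase CaMKII, averaged 111 ± 3.21 RPKM after siPDIA5 and 13.2 ± 1.08 RPKM after siNC. CLU, an extracellular chaperone, averaged 40.7 ± 2.97 RPKM after siPDIA5 and 7.22 ± 0.373 RPKM after siNC, and AQP3, a water and glycerol channel, 23.8 ± 1.40 RPKM after siPDIA5 and 4.02 ± 0.338 RPKM after siNC. The remaining genes among the 15 largest protein-coding rises were GPNMB (2.58 ± 0.11), MYOZ1 (2.54 ± 0.19), the matrix protease MMP7 (2.54 ± 0.15), the secreted glycoprotein LRG1 (2.48 ± 0.13) and the immediate early factor EGR1 (2.30 ± 0.11), all as log2 fold changes with SE. GPNMB is a glycoprotein of lysosomes and melanosomes, and MYOZ1 a protein of the sarcomere. MYOZ1 had 7.72, 7.77 and 6.53 RPKM after siPDIA5, against 0.286, 0.152 and 0.962 RPKM after siNC.

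The 15 largest protein-coding falls, PDIA5 included, joined metabolic enzymes, prostate genes and genes of cell division. ELOVL7, which elongates saturated fatty acids, had 6.54, 7.06 and 5.84 RPKM after siPDIA5, against 38.3, 43.5 and 38.02 RPKM after siNC. AADAT, a mitochondrial aminotransferase of the kynurenine and lysine pathways, had 8.19, 7.86 and 9.34 RPKM after siPDIA5, against 44.4, 46.0 and 43.9 RPKM after siNC. HES6, a transcriptional regulator of the Hairy family, had 45.8, 40.3 and 44.7 RPKM after siPDIA5, against 231, 173 and 213 RPKM after siNC. The log2 fold changes were -2.45 ± 0.08 for ELOVL7, -2.28 ± 0.07 for AADAT and -2.20 ± 0.10 for HES6. SMARCD2, a subunit of SWI/SNF chromatin remodelling complexes, averaged 29.7 ± 1.47 RPKM after siPDIA5 and 89.9 ± 2.68 RPKM after siNC (SD, n = 3 each; log2 fold change -1.57 ± 0.04). CHRNA2, a nicotinic receptor subunit, averaged 1.31 ± 0.102 RPKM after siPDIA5 and 5.72 ± 0.0746 RPKM after siNC, TMSB15A, a thymosin that binds actin, 1.05 ± 0.400 RPKM after siPDIA5 and 6.19 ± 1.02 RPKM after siNC, and TTR, a carrier of thyroid hormone, 1.25 ± 0.204 RPKM after siPDIA5 and 5.66 ± 1.57 RPKM after siNC. Of the 25 largest rises 5, and of the 25 largest falls 9, were not protein-coding and are not named.

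**Figure D2:**
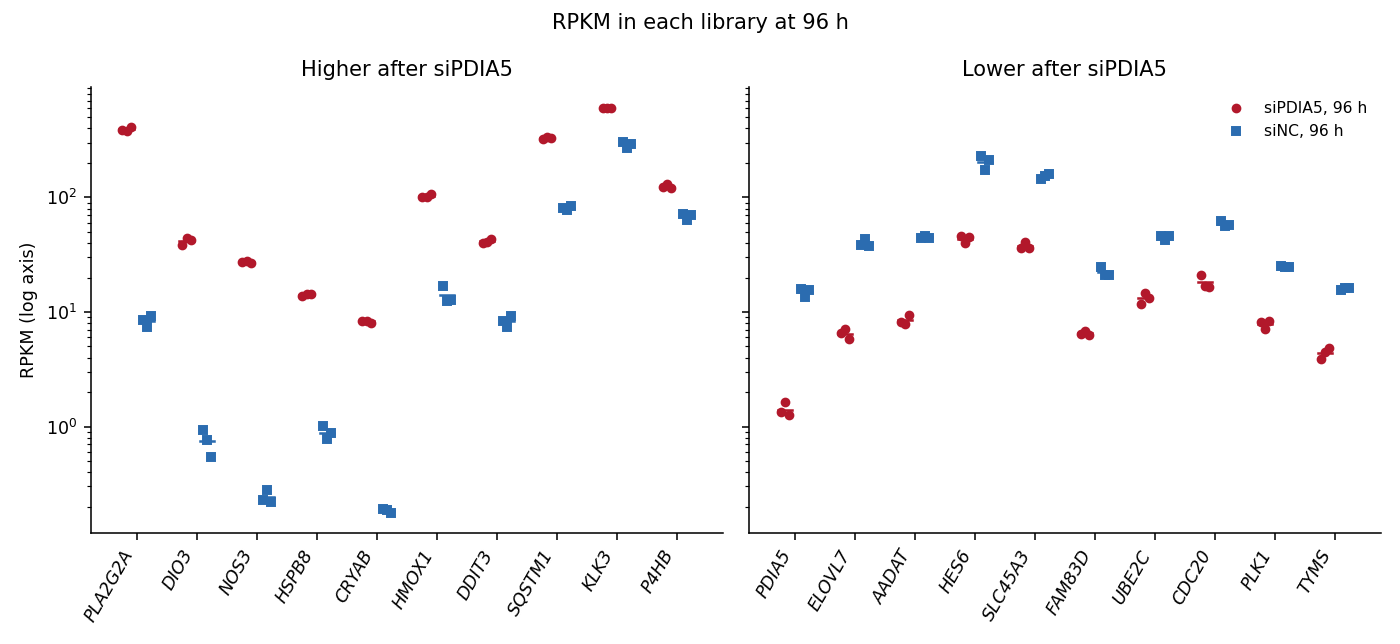
RPKM on a log axis in each of the 3 siPDIA5 (red circles) and 3 siNC (blue squares) libraries at 96 h for 10 genes that rose (left) and 10 that fell (right), with a bar at each mean. In none of the 20 genes did the libraries of the groups overlap, which was a condition for those chosen as largest rises or falls. KLK3 rose while SLC45A3 fell.

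Within the ER folding machinery most of the genes that changed rose. Of 17 tested members of the protein disulphide isomerase family, 9 rose and PDIA5 alone fell, with a median log2 fold change of 0.18 against -0.06 over all tested genes. Their shares that rose and fell were 52.9% and 5.88%, against 20.8% and 30.3% of all tested genes (51.1% called). P4HB (chr17:81843159-81860694, minus strand), which encodes PDIA1 and is also a subunit of prolyl 4-hydroxylase, had 123, 131 and 120.0 RPKM after siPDIA5, against 72.4, 63.5 and 70.9 RPKM after siNC, with a log2 fold change of 0.84 ± 0.07 (limma adjusted p = 4.29e-08). ERP44, which retains oxidases in the early secretory pathway, averaged 15.7 ± 1.05 RPKM after siPDIA5 and 10.9 ± 0.355 RPKM after siNC. PDIA3, which acts on glycoproteins with calnexin, averaged 175 ± 2.74 RPKM after siPDIA5 and 132 ± 1.34 RPKM after siNC, and PDIA4 121 ± 3.22 RPKM after siPDIA5 and 95.2 ± 2.24 RPKM after siNC. The siPDIA5 libraries lay above the siNC libraries in each of these 4 genes. Under the fit of only the groups compared 6 of the 17 rose, and under median centring 12.

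Among ER oxidases and redox partners, only some of which supply the isomerases with oxidising power, and among the chaperones, more genes rose than fell. The first list also holds selenoproteins, of which SELENOS and SELENOK rose. Of 12 tested oxidases and partners, 7 rose and QSOX2 fell (median log2 fold change 0.25, against -0.06 over all tested genes; 58.3% and 8.33%, against 20.8% and 30.3% of all tested genes). ERO1A, which reoxidises P4HB, had 4.32, 3.66 and 4.36 RPKM after siPDIA5, against 1.64, 2.08 and 1.58 RPKM after siNC, all 3 siPDIA5 values above all 3 siNC values (log2 fold change 0.89 ± 0.09). QSOX2, a sulfhydryl oxidase, averaged 8.34 ± 0.573 RPKM after siPDIA5 and 14.1 ± 0.655 RPKM after siNC. Of 27 tested chaperones and glycoprotein folding factors, 11 rose and 1 fell (median 0.15). Fewer of the chaperones changed than of all tested genes (44.4% against 51.1%), and of those that did more rose (40.7% against 20.8%) and fewer fell (3.70% against 30.3%). The largest rise was in GANAB, the catalytic subunit of glucosidase II, which had 105, 115 and 107 RPKM after siPDIA5, against 38.8, 44.0 and 42.5 RPKM after siNC (log2 fold change 1.36 ± 0.05). HSPA5, the ER chaperone BiP, had 158, 167 and 149 RPKM after siPDIA5, against 109, 102 and 109.7 RPKM after siNC (log2 fold change 0.56 ± 0.04), and CALR, the lectin chaperone calreticulin, averaged 702 ± 8.97 RPKM after siPDIA5 and 519 ± 27.7 RPKM after siNC. HYOU1 rose by 0.33 ± 0.04 and MLEC, a lectin that binds early glycans, by 0.59 ± 0.05, both as log2 fold changes. The chaperone that fell was MOGS, glucosidase I, which was picked out after its values were seen (-0.45 ± 0.08). Rises among the chaperones numbered 8 without the first siPDIA5 library and 15 with quantile normalisation. At 48 h 14 of the chaperones rose after siPDIA5 and 2 fell (median 0.29), against 16.6% and 29.2% of all tested genes. After siPDIA1 at 96 h 15 rose and 3 fell against siNC (median 0.24), where 20.1% and 25.2% of all tested genes did.

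The ER stress response element, the letters CCAAT, 9 free bases and CCACG on either strand, is the sequence through which ATF6 acts on chaperone genes. RefSeq promoters of 300 bases (GRCh38.p14) were at hand for 8464 of the tested genes, and 14 of them (0.165%) held the element, whereas the letters CCAAT alone were in 37.9%. The element was found in 5 of 23 ER chaperone promoters, those of HSPA5, CALR, HSP90B1, CRELD2 and CANX (the last 3 named for the match), all of which rose, as did 6 of the 18 chaperones without it, and in none of 16 promoters of the isomerase family. CANX passed only narrowly (limma adjusted p = 0.046). Of all 14 genes with the element, these chaperones included, 10 rose and 2 fell. Of the 8464 genes with a promoter, 1869 rose and 2807 fell (20.8% and 30.3% of all tested genes). The promoters of HSPA5 (chr9:125241294-125241593, minus strand) and CALR (chr19:12938359-12938658, plus strand) are shown because they carry the element in the chaperones described above. Capitals mark the element, which in CALR lies on the opposite strand.
HSPA5: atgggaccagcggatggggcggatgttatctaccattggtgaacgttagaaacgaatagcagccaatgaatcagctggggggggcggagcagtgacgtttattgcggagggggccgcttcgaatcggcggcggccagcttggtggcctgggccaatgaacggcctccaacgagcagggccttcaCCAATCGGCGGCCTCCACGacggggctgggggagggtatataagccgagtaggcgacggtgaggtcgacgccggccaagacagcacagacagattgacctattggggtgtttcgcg
CALR: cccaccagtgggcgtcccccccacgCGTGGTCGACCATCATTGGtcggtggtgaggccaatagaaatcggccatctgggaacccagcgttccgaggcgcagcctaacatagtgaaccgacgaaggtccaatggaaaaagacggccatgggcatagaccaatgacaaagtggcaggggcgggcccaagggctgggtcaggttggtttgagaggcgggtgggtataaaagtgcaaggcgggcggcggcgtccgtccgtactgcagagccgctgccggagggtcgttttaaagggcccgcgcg

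Genes of ER-associated degradation and of protein entry changed in both directions. Of 26 tested degradation genes, 11 rose and 7 fell, the fallen genes numbering 4 under quantile normalisation. These were 42.3% and 26.9% of the list, against 20.8% and 30.3% of all tested genes, so the share that fell was near that of all genes. HERPUD1, which organises the HRD1 ligase complex and is itself induced by ER stress, had 38.5, 39.4 and 38.3 RPKM after siPDIA5, against 15.3, 15.4 and 16.1 RPKM after siNC (log2 fold change 1.26 ± 0.05). SYVN1, the HRD1 ligase, averaged 20.3 ± 0.827 RPKM after siPDIA5 and 13.8 ± 0.447 RPKM after siNC. FAF2 and RNF5, which act in the same pathway, fell by 0.76 and 0.78 on the log2 scale. Of 31 tested genes of the translocon and signal peptidase, 8 rose and 11 fell, or 7 fell under each scaling tried, with only the groups compared and without the second or the third siPDIA5 library. Their shares, 25.8% and 35.5%, were near those of all tested genes, 20.8% and 30.3%. SEC61B, a translocon subunit, was among those that fell, at 50.9 ± 4.17 RPKM after siPDIA5 and 87.1 ± 9.05 RPKM after siNC. SPCS1 rose (0.75 ± 0.05), but 58.1% of its exon bases overlap another gene, NEK4, on the opposite strand, and the strand setting of the counting is not given in the sources used here. In vesicle coats and Golgi transport 16 of 35 genes rose and 3 fell (45.7% and 8.57%, against 20.8% and 30.3% of all tested genes), with SURF4, a cargo receptor, at 122 ± 6.62 RPKM after siPDIA5 and 73.1 ± 1.39 RPKM after siNC.

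Most of the sensors and transducers of the unfolded protein response rose. Of 16 tested sensors and transducers, 10 rose and CREB3L4 fell (median log2 fold change 0.27), 62.5% and 6.25%, against 20.8% and 30.3% of all tested genes. DDIT3, the transcription factor CHOP, had 40.2, 40.6 and 43.8 RPKM after siPDIA5, against 8.31, 7.36 and 9.23 RPKM after siNC, no library of 1 group reaching the other (log2 fold change 2.20 ± 0.15, limma adjusted p = 6.46e-09). DDIT3 shares 39.6% of its exon bases with other genes, mainly MARS1, and 8.03% with genes on its own strand, so part of its reads may belong there. MARS1, a methionyl-tRNA synthetase and itself an ATF4 target named after its values were seen, rose by 0.53 ± 0.04. ATF4 averaged 208 ± 3.43 RPKM after siPDIA5 and 105 ± 7.57 RPKM after siNC, and TRIB3, a pseudokinase induced by ATF4 and CHOP, 60.7 ± 2.58 RPKM after siPDIA5 and 24.8 ± 3.12 RPKM after siNC. ERN1, the sensor IRE1, averaged 3.60 ± 0.238 RPKM after siPDIA5 and 1.84 ± 0.241 RPKM after siNC. ATF6, chosen here after its values were seen, averaged 4.33 ± 0.0950 RPKM after siPDIA5 and 3.54 ± 0.266 RPKM after siNC and rose by 0.23 ± 0.07 on the log2 scale.

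Of 38 tested ATF4 targets, 28 rose and 2 fell (73.7% and 5.26%, against 20.8% and 30.3% of all tested genes), with a median of 0.53 against -0.06 over all genes. CHAC1, which degrades glutathione, had 22.2, 20.54 and 20.8 RPKM after siPDIA5, against 8.71, 6.08 and 7.03 RPKM after siNC (log2 fold change 1.44 ± 0.11). SLC7A5, a subunit of the transporter of large neutral amino acids, had 7.31, 7.37 and 6.74 RPKM after siPDIA5, against 1.55, 2.21 and 1.91 RPKM after siNC (log2 fold change 1.498 ± 0.09). GDF15, a secreted stress cytokine, averaged 1435 ± 41.9 RPKM after siPDIA5 and 471 ± 23.7 RPKM after siNC, DDIT4, an inhibitor of mTORC1 signalling, 240.1 ± 3.68 RPKM after siPDIA5 and 109 ± 6.95 RPKM after siNC, and AARS1, the alanyl-tRNA synthetase, 66.8 ± 1.96 RPKM after siPDIA5 and 34.9 ± 0.463 RPKM after siNC. The siPDIA5 libraries were above the siNC libraries in all 5 genes. The fallen members were PYCR1 and ALDH18A1 of proline synthesis (-0.17 ± 0.04 and -0.28 ± 0.05, both named after their values were seen). ASNS, another member named after its values were seen, did not pass (0.20 ± 0.10, limma adjusted p = 0.121).

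ATF4 binds with C/EBP proteins at composite sites. The letters TGATGNAA, searched on both strands after the data had been seen, occurred in 10 of 33 promoters of ATF4 targets (30.3%) and in 1.54% of the 8464 promoters, and no such match was present in the 23 chaperone promoters. Of the 10 genes with a match 6 rose: AARS1, ATF3, CARS1, CHAC1, MARS1 and SLC3A2, of which ATF3, CARS1 and SLC3A2 are named for the match. Of the 23 ATF4 targets whose promoter had no match 19 rose, a larger share than of those with one. Among the 8464 genes with a promoter 1869 rose, and among all tested genes 20.8%. The promoters of CHAC1 (chr15:40953221-40953520, plus strand) and AARS1 (chr16:70289457-70289756, minus strand) are printed with the match in capitals, on the opposite strand in both.
CHAC1: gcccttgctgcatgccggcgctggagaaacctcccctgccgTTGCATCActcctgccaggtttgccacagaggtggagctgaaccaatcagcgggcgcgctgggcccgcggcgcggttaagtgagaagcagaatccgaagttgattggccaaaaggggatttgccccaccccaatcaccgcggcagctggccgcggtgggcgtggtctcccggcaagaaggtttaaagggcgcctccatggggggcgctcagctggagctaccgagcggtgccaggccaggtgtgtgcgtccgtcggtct
AARS1: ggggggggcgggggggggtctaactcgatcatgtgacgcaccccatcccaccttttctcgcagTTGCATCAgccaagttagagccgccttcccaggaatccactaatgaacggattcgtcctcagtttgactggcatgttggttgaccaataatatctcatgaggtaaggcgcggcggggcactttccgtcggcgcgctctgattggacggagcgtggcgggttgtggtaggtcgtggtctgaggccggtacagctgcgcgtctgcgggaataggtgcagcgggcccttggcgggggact

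Stress genes of other pathways were divided. Of 33 tested NRF2 targets, 18 rose and 4 fell (median 0.21), led by HMOX1, 54.5% and 12.1%, against 20.8% and 30.3% of all tested genes. SQSTM1, the autophagy receptor p62, had 321, 339 and 327 RPKM after siPDIA5, against 81.6, 78.1 and 83.8 RPKM after siNC, a ratio of means of 4.05. FTH1, the heavy chain of ferritin, averaged 932 ± 42.1 RPKM after siPDIA5 and 253 ± 17.2 RPKM after siNC, but 62.4% of its exon bases overlap BEST1 on the opposite strand and it has many pseudogenes, so its reads are uncertain. NQO1 averaged 73.1 ± 0.530 RPKM after siPDIA5 and 34.5 ± 4.28 RPKM after siNC, whereas TXN and PRDX6, named after their values were seen, fell by 0.41 and 0.48 on the log2 scale. Of 26 tested heat shock genes, 7 rose and 8 fell, 26.9% and 30.8%, close to the 20.8% and 30.3% of all tested genes. The 3 that changed by 2-fold or more were the small heat shock proteins HSPB8 and HSPB1, which rose, and the co-chaperone PTGES3, which fell. HSPB1 averaged 2178 ± 106 RPKM after siPDIA5 and 613 ± 72.3 RPKM after siNC, PTGES3 59.5 ± 3.11 RPKM after siPDIA5 and 141 ± 3.18 RPKM after siNC and HSP90AB1 607 ± 18.3 RPKM after siPDIA5 and 833 ± 14.5 RPKM after siNC. Of 42 tested autophagy and lysosome genes, 26 rose and 4 fell (median 0.38), 61.9% and 9.52%, against 20.8% and 30.3% of all tested genes. Those that rose included CTSB, a cysteine protease, at 28.2 ± 1.32 RPKM after siPDIA5 and 10.6 ± 0.559 RPKM after siNC, GABARAPL1 at 18.1 ± 0.109 RPKM after siPDIA5 and 8.25 ± 0.690 RPKM after siNC, PSAP at 415 ± 23.0 RPKM after siPDIA5 and 278 ± 6.85 RPKM after siNC and TFE3, a regulator of lysosomal genes, at 38.2 ± 0.252 RPKM after siPDIA5 and 21.8 ± 1.45 RPKM after siNC.

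**Figure D3:**
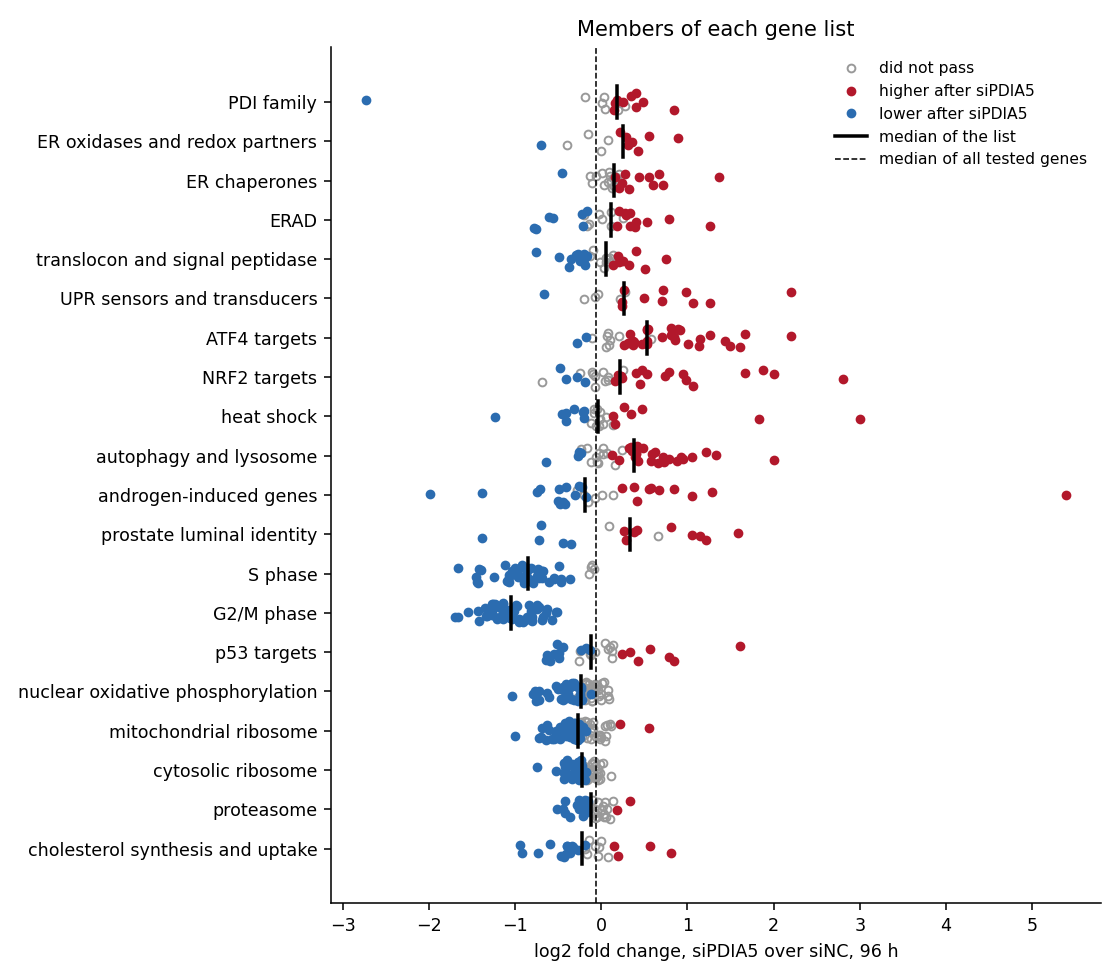
Log2 fold changes (siPDIA5 over siNC, 96 h) of the tested members of 20 gene lists, filled red where a member rose, filled blue where it fell and open where it did not pass, with a bar at each list's median and a dashed line at the median of all tested genes (-0.06). The ATF4 targets lie mostly to the right (median 0.53) and all 57 G2/M genes lie to the left (median -1.04).

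Nearly all genes of cell division fell. All 57 tested G2/M genes fell (median -1.04), and of 46 tested S-phase genes 42 fell, none rose and 4 did not pass (median -0.85), against 30.3% of all tested genes that fell. UBE2C, the ubiquitin-conjugating enzyme of the anaphase-promoting complex, had 11.7, 14.6 and 13.2 RPKM after siPDIA5, against 46.4, 42.2 and 46.2 RPKM after siNC. CDC20, which activates that complex, had 20.9, 16.9 and 16.5 RPKM after siPDIA5, against 62.9, 56.6 and 57.5 RPKM after siNC. PLK1, a mitotic kinase, had 8.14, 7.14 and 8.36 RPKM after siPDIA5, against 25.3, 24.8 and 24.7 RPKM after siNC. The siPDIA5 libraries of these 3 genes all lay below their siNC libraries, and the log2 fold changes were -1.70 ± 0.08 for UBE2C, -1.66 ± 0.08 for CDC20 and -1.55 ± 0.06 for PLK1. FOXM1, which drives G2/M genes, averaged 8.58 ± 0.781 RPKM after siPDIA5 and 22.9 ± 1.56 RPKM after siNC, the kinase CDK1 12.3 ± 0.181 RPKM after siPDIA5 and 27.2 ± 0.509 RPKM after siNC, and FAM83D, a spindle protein, 6.49 ± 0.274 RPKM after siPDIA5 and 22.2 ± 2.24 RPKM after siNC.

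The S-phase genes that fell included those of the replicative helicase, nucleotide supply and lagging-strand processing. MCM7 averaged 27.0 ± 0.546 RPKM after siPDIA5 and 73.9 ± 5.96 RPKM after siNC and MCM2 15.4 ± 0.587 RPKM after siPDIA5 and 34.1 ± 1.56 RPKM after siNC, both subunits of the helicase. RRM2, a subunit of ribonucleotide reductase, had 4.23, 4.66 and 3.98 RPKM after siPDIA5, against 13.4, 13.7 and 13.4 RPKM after siNC, and FEN1, a flap endonuclease, averaged 21.8 ± 1.05 RPKM after siPDIA5 and 52.8 ± 2.17 RPKM after siNC. TYMS, the thymidylate synthase, averaged 4.38 ± 0.466 RPKM after siPDIA5 and 15.9 ± 0.442 RPKM after siNC, though 46.6% of its exon bases overlap ENOSF1 on the opposite strand. Neither list lost more than 1 of these calls when any 1 library was left out.

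The cell cycle genes homology region, the letters TTTGAA, is a promoter sequence through which G2/M genes are repressed in resting cells. Searched on both strands after the data had been seen, it was present in 33 of 49 G2/M promoters (67.3%), 1 of 38 S-phase promoters and 8.86% of the 8464 promoters. Among all tested genes it was in 9.73% of the promoters of those that fell and 7.87% of those that rose. All tested G2/M genes fell, so the list cannot show whether the letters go with a fall. The promoters of PLK1 (chr16:23678639-23678938, plus strand) and CDC20 (chr1:43358731-43359030, plus strand) are shown with the letters in capitals, which occur once in PLK1 and once on each strand in CDC20.
PLK1: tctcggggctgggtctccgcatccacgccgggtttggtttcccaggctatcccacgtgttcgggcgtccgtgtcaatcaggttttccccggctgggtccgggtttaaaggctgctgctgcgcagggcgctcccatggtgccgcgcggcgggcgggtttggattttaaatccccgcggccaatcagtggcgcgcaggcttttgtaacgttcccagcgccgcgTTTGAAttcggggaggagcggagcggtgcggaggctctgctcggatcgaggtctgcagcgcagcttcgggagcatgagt
CDC20: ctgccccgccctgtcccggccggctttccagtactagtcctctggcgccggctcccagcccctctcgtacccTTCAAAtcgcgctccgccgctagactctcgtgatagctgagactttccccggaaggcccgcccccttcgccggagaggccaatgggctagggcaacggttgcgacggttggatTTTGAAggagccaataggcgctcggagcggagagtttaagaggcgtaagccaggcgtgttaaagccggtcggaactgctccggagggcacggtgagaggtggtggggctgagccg

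Prostate genes did not move together. Of 30 tested androgen-induced genes, 10 rose and 14 fell (median -0.19), 33.3% and 46.7%, against 20.8% and 30.3% of all tested genes. The kallikrein genes rose: KLK3, which encodes prostate-specific antigen, had 609, 598 and 600.0 RPKM after siPDIA5, against 306, 273 and 295 RPKM after siNC (log2 fold change 1.05 ± 0.05, limma adjusted p = 7.64e-11). KLK2, KLK4 and KLK15, named after their values were seen, rose by 0.57 ± 0.07, 0.55 ± 0.05 and 0.84 ± 0.10, and KLK2 and KLK3 are close in sequence, so that reads may be shared. SLC45A3, the prostate transporter prostein, had 36.2, 40.7 and 36.4 RPKM after siPDIA5, against 144, 155 and 160.3 RPKM after siNC (log2 fold change -1.99 ± 0.06). KLK3 was thus higher in every siPDIA5 library, and SLC45A3 was lower in every one. SORD fell by 0.49 on the log2 scale, and TMPRSS2 and FKBP5, also named after their values were seen, fell by 0.41 and 0.30. PLA2G2A, described above, and UGT2B11, which glucuronidates steroids, also rose. UGT2B11 averaged 21.7 ± 0.341 RPKM after siPDIA5 and 8.36 ± 0.467 RPKM after siNC, but its reads may be shared with the other UGT2B genes.

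Of 16 tested luminal markers, 9 rose and 5 fell (median 0.34), 56.2% and 31.2%, against 20.8% and 30.3% of all tested genes. FOLH1, which encodes prostate-specific membrane antigen, averaged 158 ± 4.48 RPKM after siPDIA5 and 89.4 ± 0.275 RPKM after siNC, and CDH1, the epithelial cadherin, 179 ± 9.71 RPKM after siPDIA5 and 76.6 ± 10.3 RPKM after siNC. HOXB13, a homeobox factor of the prostate, averaged 103 ± 0.803 RPKM after siPDIA5 and 168 ± 5.01 RPKM after siNC. Among 18 neuroendocrine markers 3 were tested: SYT4, a synaptotagmin, had 54.9, 53.1 and 53.7 RPKM after siPDIA5, against 10.7, 11.4 and 10.9 RPKM after siNC, ENO2 averaged 5.71 ± 0.463 RPKM after siPDIA5 and 3.05 ± 0.193 RPKM after siNC, and STX1A did not pass (-0.22 ± 0.15). The summed level of the 18 was 61.4 to 62.3 RPKM after siPDIA5 and 17.2 to 17.7 RPKM after siNC, mostly SYT4, while CHGA was at most 0.0522 RPKM after siPDIA5 and 0.0373 RPKM after siNC. The 12 stromal markers summed to 5.18 to 5.33 RPKM after siPDIA5 and 10.2 to 11.01 RPKM after siNC, with 6 at 0 in all 3 siPDIA5 libraries and 5 at 0 in all 3 siNC libraries. ACTA2, the smooth muscle actin gene, made up most of that difference, at 1.61, 1.12 and 1.56 RPKM after siPDIA5, against 6.76, 6.83 and 6.94 RPKM after siNC. The endothelial markers summed to 2.45 to 3.17 RPKM after siPDIA5 and 2.08 to 2.21 RPKM after siNC, nearly all from VWF (2.40 ± 0.292 RPKM after siPDIA5 and 1.49 ± 0.0956 RPKM after siNC), and PECAM1 was at most 0.0077 RPKM in any of the 6 libraries.

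Part of the genes of mitochondria and protein synthesis fell, and few rose, against 30.3% and 20.8% of all tested genes. Of 73 tested nuclear genes of oxidative phosphorylation, 37 fell (50.7%) and none rose (median -0.24), led by NDUFB10, a complex I subunit, at 189 ± 12.7 RPKM after siPDIA5 and 389 ± 43.7 RPKM after siNC. Of 73 mitochondrial ribosome genes, 40 fell (54.8%) and 2 rose (2.74%; median -0.27), with MRPS27 at 17.5 ± 0.366 RPKM after siPDIA5 and 36.2 ± 1.15 RPKM after siNC. The 13 mitochondrially encoded genes had a median of 0.16, and 2 of them, MT-CO1 and MT-ND4, rose (15.4%, below the 20.8% of all tested genes). The count of those that rose was 7 after rescaling without mitochondrial genes, 5 under median centring, 6 without the second siNC library, 1 without the first or the third and 0 with quantile normalisation, with only the groups compared or without the third siPDIA5 library. Their log2 fold changes were 0.18 ± 0.06 and 0.26 ± 0.08, and neither call held with quantile normalisation or without the third siPDIA5 library (limma adjusted p = 0.141 for MT-CO1 and 0.0571 for MT-ND4 without it). MT-CO1 also lost its call without the first or the third siNC library (limma adjusted p = 0.0838 and 0.0891). Of 76 tested cytosolic ribosome genes, 37 fell (48.7%) and none rose (median -0.23), so that 48.7% changed, against 51.1% of all tested genes. This count moved with single control libraries, with 58 falls without the second siNC library at 96 h and 23 without the first, and it was 24 to 33 under other scalings. Mitochondrially encoded transcripts took a larger share of reads in all 3 siPDIA5 libraries, as given above, and their part in these small falls was not tested beyond the rescaling. Of 36 proteasome genes, 15 fell (41.7%) and 2 rose (5.56%), together 47.2%. The 2 became 4 with quantile normalisation and 1 without the second or the third siNC library or the first siPDIA5 library. The 15 that fell became 10 with only the groups compared and 18 without the second siNC library.

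Lipid genes moved in both directions. Of 26 tested genes of cholesterol synthesis and uptake, 14 fell and 4 rose, or 2 rose without the second siPDIA5 library (median -0.23), 53.8% and 15.4%, against 30.3% and 20.8% of all tested genes. DHCR7, a reductase late in cholesterol synthesis, had 27.4, 28.3 and 27.5 RPKM after siPDIA5, against 39.4, 34.4 and 36.9 RPKM after siNC (log2 fold change -0.40 ± 0.05). TM7SF2, a sterol reductase, averaged 204 ± 8.89 RPKM after siPDIA5 and 115.98 ± 9.04 RPKM after siNC, and SREBF2, the regulator of the pathway, 57.2 ± 3.99 RPKM after siPDIA5 and 38.4 ± 3.25 RPKM after siNC, both higher. ACAT2 averaged 9.11 ± 0.0725 RPKM after siPDIA5 and 18.4 ± 0.520 RPKM after siNC, with 52.3% of its exon bases shared with another transcript. Of 21 fatty acid genes, 6 rose and 10 fell (28.6% and 47.6%, against 20.8% and 30.3% of all tested genes), with ACLY, which makes cytosolic acetyl-CoA, at 75.7 ± 0.938 RPKM after siPDIA5 and 125 ± 10.8 RPKM after siNC and ELOVL6 at 3.74 ± 0.0694 RPKM after siPDIA5 and 7.59 ± 0.260 RPKM after siNC, whereas ME1, the malic enzyme, averaged 47.3 ± 0.985 RPKM after siPDIA5 and 27.1 ± 1.19 RPKM after siNC.

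Most of the changed immune and matrix genes rose, while cell death genes were mixed, and 20.8% of all tested genes rose and 30.3% fell. Of 20 tested interferon-stimulated genes, 13 rose and 1 fell, or none fell without the first or the third siPDIA5 library (median 0.41; 65.0% and 5% of the list). IRF7 rose, at 13.8 ± 1.31 RPKM after siPDIA5 and 5.85 ± 0.510 RPKM after siNC. Of 11 NF-kB targets, 9 rose and 1 fell (median 0.47; 81.8% and 9.09%), with BIRC3, an inhibitor of apoptosis, at 3.06 ± 0.171 RPKM after siPDIA5 and 0.970 ± 0.330 RPKM after siNC and NFKB1 at 15.2 ± 0.765 RPKM after siPDIA5 and 8.85 ± 0.284 RPKM after siNC. Of 21 matrix and adhesion genes, 12 rose and 1 fell (median 0.26; 57.1% and 4.76%). LAMB2, a laminin chain, had 152, 166 and 155 RPKM after siPDIA5, against 35.7, 34.5 and 36.3 RPKM after siNC (log2 fold change 2.12 ± 0.05), and FN1, fibronectin, averaged 41.9 ± 2.45 RPKM after siPDIA5 and 14.0 ± 2.01 RPKM after siNC. The list of the BCL2 family and the caspases also holds other cell death genes, among them BIRC3, which is counted in both lists. Of its 25 tested genes, 11 rose and 6 fell (44.0% and 24%). The death factor BOK averaged 30.9 ± 0.770 RPKM after siPDIA5 and 16.2 ± 1.47 RPKM after siNC, BAX 18.04 ± 0.542 RPKM after siPDIA5 and 27.8 ± 0.864 RPKM after siNC and BMF 3.16 ± 0.205 RPKM after siPDIA5 and 6.58 ± 0.309 RPKM after siNC. Of 30 tested p53 targets, 7 rose and 12 fell (median -0.12), 23.3% and 40% of the list. CDKN1A, the p21 inhibitor, named after its values were seen, averaged 357 ± 15.7 RPKM after siPDIA5 and 389.7 ± 19.2 RPKM after siNC. Among 34 genes of hypoxia and glycolysis, 10 rose and 15 fell (29.4% and 44.1%), with VEGFA at 11.8 ± 0.328 RPKM after siPDIA5 and 4.83 ± 0.0921 RPKM after siNC and LDHA at 94.7 ± 5.03 RPKM after siPDIA5 and 152 ± 12.1 RPKM after siNC.

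The effect of siPDIA5 at 96 h was set against its effect at 48 h, 2 comparisons that share no library. At 48 h 1944 genes rose (16.6%) and 3408 fell (29.2%), together 45.8% of those tested. Of the 5972 genes that changed at 96 h, 3662 also changed in the same direction at 48 h (61.3% of the calls at 96 h and 68.4% of those at 48 h), 167 changed in the opposite direction and 2143 did not pass at 48 h. The effect itself differed between the times for 2139 genes (18.3%), with 1077 differences upward (9.22%) and 1062 downward (9.09%), or 782 upward and 1419 downward with median centring. PDIA5 was not among them, with a difference of -0.18 ± 0.11 (limma adjusted p = 0.322).

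The effect on many ATF4 targets and cholesterol genes differed by time. At 48 h 6 ATF4 targets were higher and 17 were lower (median log2 fold change -0.12), and the effect was more positive at 96 h for 33 of the 38. Of all tested genes, 16.6% were higher and 29.2% lower at 48 h, and 9.22% had a more positive effect at 96 h. CHAC1 averaged 6.37 ± 1.06 RPKM after siPDIA5 and 12.02 ± 0.844 RPKM after siNC at 48 h and 21.2 ± 0.919 RPKM after siPDIA5 and 7.27 ± 1.33 RPKM after siNC at 96 h, so that the siPDIA5 libraries all lay below the siNC libraries at the first time and all above them at the second (difference of log2 fold changes 2.26 ± 0.16, limma adjusted p = 1.1e-07). DDIT3 averaged 5.16 ± 1.06 RPKM after siPDIA5 and 4.30 ± 0.238 RPKM after siNC at 48 h (difference 1.99 ± 0.21), and ATF4 91.2 ± 3.24 RPKM after siPDIA5 and 100.2 ± 2.43 RPKM after siNC (difference 1.12 ± 0.07). Cholesterol genes had a median of 0.16 at 48 h, with 11 higher and 3 lower. Of the 26, 17 had a more negative effect at 96 h, against 9.09% of all tested genes.

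The largest positive differences between the times were in DIO3, NOS3, HMOX1, CHAC1, PLA2G2A and EGR1, all of which were higher at 96 h. NOS3 averaged 1.87 ± 0.335 RPKM after siPDIA5 and 0.290 ± 0.0985 RPKM after siNC at 48 h, where it was also called higher (1.15 ± 0.11), and the difference of its log2 fold changes was 3.36 ± 0.16. HMOX1 averaged 8.12 ± 0.570 RPKM after siPDIA5 and 5.77 ± 0.739 RPKM after siNC at 48 h (difference 2.37 ± 0.16). EGR1 averaged 0.670 ± 0.0352 RPKM after siPDIA5 and 0.409 ± 0.158 RPKM after siNC at 48 h, which did not pass (limma adjusted p = 0.0725). The largest negative differences were in ACTA2, TTR, THRSP, ELOVL7, MYL9 and ST6GALNAC1. For ACTA2, TTR and MYL9 the siNC levels were themselves higher at 96 h than at 48 h, a comparison in which 24.3% of all tested genes were called (11% higher and 13.3% lower): ACTA2 averaged 2.36 ± 0.0789 RPKM after siPDIA5 and 1.82 ± 0.270 RPKM after siNC at 48 h, TTR 1.54 ± 0.0537 RPKM after siPDIA5 and 1.61 ± 0.157 RPKM after siNC, and MYL9 2.40 ± 0.636 RPKM after siPDIA5 and 2.40 ± 0.231 RPKM after siNC, while at 96 h MYL9 averaged 2.72 ± 0.199 RPKM after siPDIA5 and 7.92 ± 0.998 RPKM after siNC. THRSP, a regulator of lipogenesis, rose at both times, by 2.62 ± 0.23 at 48 h and 1.23 ± 0.23 at 96 h.

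The isomerase family and the division genes had the same direction of median at both times. In the isomerase family 0 of 17 members had a called difference, but 2 had one under median centring, with quantile normalisation and without the first siNC library at 96 h. Without the second siNC library at 96 h, the third siNC library at 48 h or the third siPDIA5 library at 48 h it was 1, and P4HB averaged 129 ± 3.13 RPKM after siPDIA5 and 66.9 ± 0.761 RPKM after siNC at 48 h. S-phase genes had a median of -0.57 at 48 h with 40 lower, and G2/M genes -0.67 with 56 lower, where 29.2% of all tested genes were lower. The effect was more negative at 96 h for 20 of the 46 S-phase genes and 34 of the 57 G2/M genes, and less negative for none. For all tested genes the share with a more negative effect was 9.09%. TYMS, SMARCD2 and FAM83D had log2 fold changes at 48 h of -1.53 ± 0.07, -1.53 ± 0.04 and -1.46 ± 0.07, and their differences, -0.13 ± 0.10, -0.03 ± 0.05 and -0.16 ± 0.10, did not pass (limma adjusted p = 0.427, 0.746 and 0.266).

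**Figure D4:**
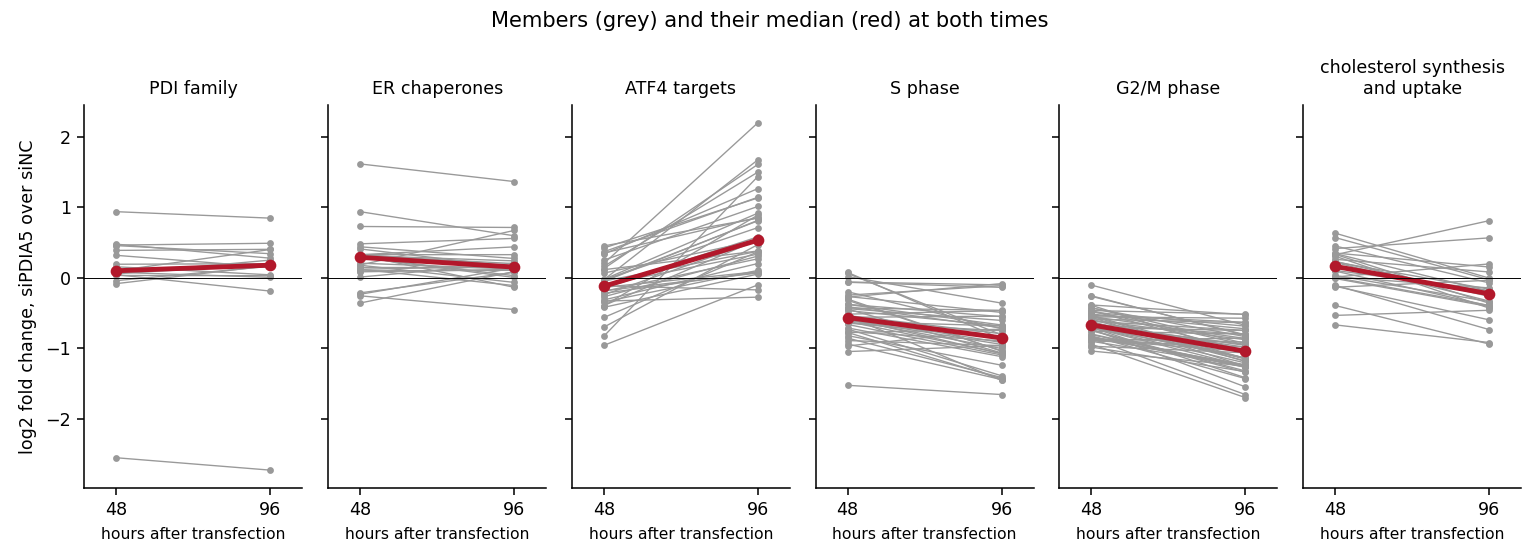
Log2 fold changes of siPDIA5 over siNC at 48 h and 96 h, with a grey line for each tested member of 6 gene lists and a red line for the list's median. The median of the ATF4 targets is -0.12 at 48 h and 0.53 at 96 h, that of cholesterol synthesis and uptake 0.16 and -0.23, and both division lists lie further below 0 at 96 h.

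siPDIA5 at 96 h was also compared directly with the other knockdown of that time, siPDIA1. Between siPDIA5 and siPDIA1 5672 genes differed (48.5%), 2438 higher after siPDIA5 (20.9%) and 3234 lower (27.7%), or 5145 without the siPDIA1 library that stood apart. The targeted genes differed in opposite directions: P4HB averaged 124 ± 5.62 RPKM after siPDIA5 and 9.16 ± 0.953 RPKM after siPDIA1 (SD, n = 3 each), and PDIA5 1.40 ± 0.200 RPKM after siPDIA5 and 15.9 ± 1.46 RPKM after siPDIA1. Both knockdowns share the siNC libraries at 96 h, so their values against siNC are set side by side only. All 57 G2/M genes were lower after siPDIA5 than after siPDIA1 (median difference -0.71 on the log2 scale), and 33 of the 38 ATF4 targets were higher and 1 was lower. Without the siPDIA1 library that stood apart these counts were 57, 35 and 1. Against siNC, 3 ATF4 targets rose after siPDIA1 and 22 fell, where 20.1% of all tested genes rose and 25.2% fell, together 45.3%, and 4 rose and 22 fell without that library, a count added after the data had been seen. Division genes fell after siPDIA1 too, with 43 of the 57 G2/M genes (median -0.39) and 39 of 46 S-phase genes (median -0.36) lower than after siNC. Without that library 42 and 34 of them fell. Of 76 cytosolic ribosome genes, 60 were lower after siPDIA5 than after siPDIA1 (61 without that library) and 1 was higher. Against siNC, 32 of these ribosome genes rose after siPDIA1 and 1 fell (median 0.20), or 25 and 2 without that library. After siPDIA5 their median against siNC was -0.23.

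Single genes separated the knockdowns further. HSD11B2 averaged 213 ± 15.5 RPKM after siPDIA5, 19.9 ± 1.23 RPKM after siPDIA1 and 27.0 ± 1.02 RPKM after siNC, a log2 difference between the knockdowns of 3.35 ± 0.07 (limma adjusted p = 5.22e-15). UGT2B11 averaged 21.7 ± 0.341 RPKM after siPDIA5, 2.58 ± 0.721 RPKM after siPDIA1 and 8.36 ± 0.467 RPKM after siNC, and NPPC, a natriuretic peptide, 13.9 ± 2.61 RPKM after siPDIA5, 0.842 ± 0.163 RPKM after siPDIA1 and 4.75 ± 0.885 RPKM after siNC. UGT2B11 and NPPC thus lay above siNC after siPDIA5 and below it after siPDIA1. TRPM8, a cold-sensing channel, averaged 1.33 ± 0.285 RPKM after siPDIA5, 14.5 ± 1.35 RPKM after siPDIA1 and 2.14 ± 0.114 RPKM after siNC, and ACTA2 1.43 ± 0.267 RPKM after siPDIA5, 15.5 ± 0.704 RPKM after siPDIA1 and 6.84 ± 0.0878 RPKM after siNC, both highest after siPDIA1. EFNB2 and TUBA1A did not pass between siPDIA5 and siNC (limma adjusted p = 0.989 and 0.551) and were higher after siPDIA1 than after siPDIA5, by 2.62 and 2.25 on the log2 scale. S100A10 was also lower after siPDIA5 (-2.54 ± 0.35), with 0.252, 0.125 and 1.12 RPKM in the siPDIA5 libraries. Leaving out the first siPDIA1 library moved the log2 differences of the 11 genes named by rule for this comparison by at most 0.18. These include NOS3, higher after siPDIA5 by 2.82, or 2.74 without that library, but not SLC45A3 or KLK3. SLC45A3 was lowest after siPDIA1, at 37.8 ± 2.52 RPKM after siPDIA5, 18.02 ± 1.37 RPKM after siPDIA1 and 153 ± 8.58 RPKM after siNC, and KLK3 was highest after siPDIA5, at 602 ± 5.77 RPKM after siPDIA5, 350.4 ± 7.07 RPKM after siPDIA1 and 291 ± 17.2 RPKM after siNC.

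**Figure D5:**
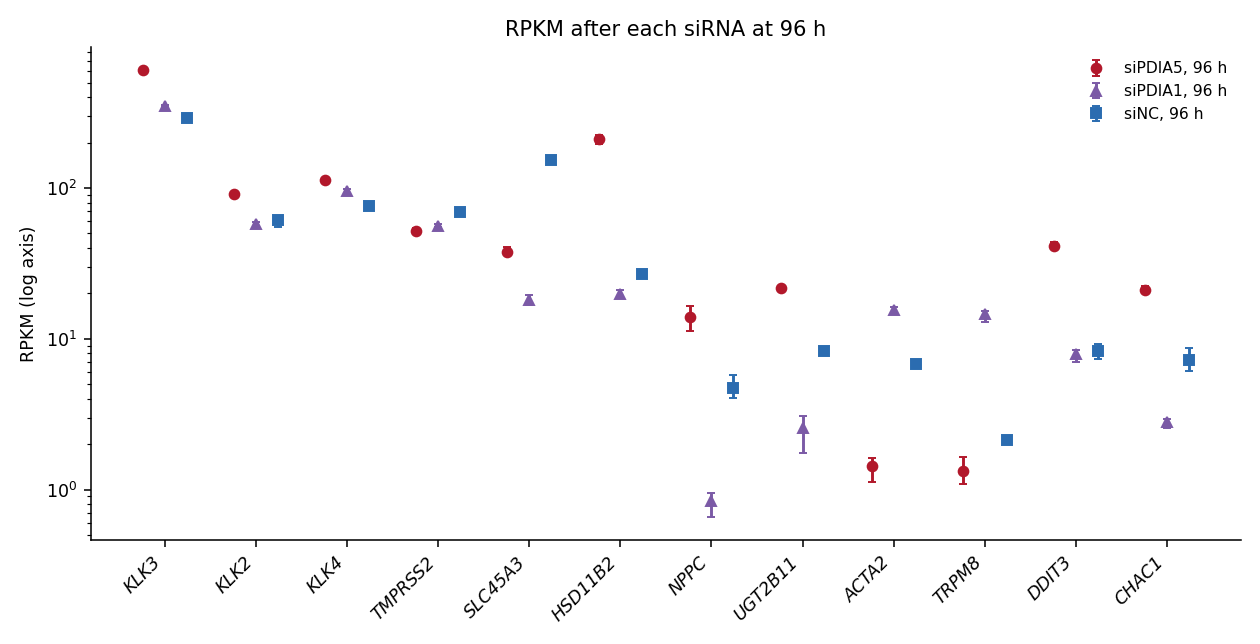
Mean RPKM at 96 h on a log axis after siPDIA5 (red circles), siPDIA1 (purple triangles) and siNC (blue squares) for 12 genes, with bars from the lowest to the highest of 3 libraries. HSD11B2 averaged 213 RPKM after siPDIA5, 19.9 after siPDIA1 and 27.0 after siNC, and ACTA2 averaged 1.43 RPKM after siPDIA5, 15.5 after siPDIA1 and 6.84 after siNC.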

How the data were processed

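Polyadenylated RNA of LNCaP cells was sequenced from stranded libraries, per the labels' protocols. The values are RPKM per gene as the authors deposited them. STAR 2.7.0f, cutadapt 1.8, R 3.4.1, DESeq2, featureCounts and the build GRCh38 were used per the submitters' processing notes, which give no order or role. No source used here states the annotation or the strand setting of the counting. Steps of 1 read in the low RPKM values gave the estimated reads per library.

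Genes averaging 1 RPKM or more across all 18 libraries were kept, and log2(RPKM + 1) was fitted with limma 3.58.1 (R 4.3.3), 1 mean per group over all 18 libraries, with Benjamini-Hochberg adjustment over 11685 genes. Other steps used Python 3.11.15 and pandas 2.3.3. Gene positions came from GENCODE 29 and promoters from RefSeq GRCh38.p14. The procedure was tested on simulated data.

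Named were PDIA5 and P4HB, the 15 largest called protein-coding rises and 15 falls whose libraries did not overlap, up to 5 members of each list with the smallest adjusted p, and the 6 largest positive and 6 largest negative differences by time and by siRNA. The members and lists were chosen with earlier results of these data known. Other genes are said to be named after their values were seen. Some genes that the rule names are not reported here. Alternatives varied the pseudocount, the filter, the scaling, the samples fitted, the replicate block and single libraries.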

Additional observations from a re-analysis of the deposited data

Results flagged for a closer look

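The effect of siPDIA5 differed between 96 h and 48 h, by a test of the difference itself (limma, adjusted over all tested genes), for 2139 genes, of which 103 are named. For 28 of the 103 the difference was at least 2-fold, and for 75 it was smaller. The values below are log2 fold changes at 96 h minus those at 48 h, each over 3 libraries a group.

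Among the genes with a more positive effect at 96 h, DIO3 differed by 3.55, NOS3 by 3.36 and PLA2G2A by 2.06. Stress genes included HMOX1 at 2.37, CHAC1 at 2.26, DDIT3 at 1.99, GDF15 at 1.48, SLC7A5 at 1.34 and ATF4 at 1.12. The small heat shock proteins CRYAB and HSPB8 differed by 1.97 and 1.84. FTH1 differed by 1.48, SQSTM1 by 1.35 and GABARAPL1 by 1.09. GPNMB differed by 1.60, HSD11B2 by 1.54, MYOZ1 by 1.75 and EGR1 by 2.05. LAMB2 differed by 1.33, CAMK2N1 by 1.28, VEGFA by 1.22 and MMP7 by 1.16.

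The effect was more negative at 96 h for ACTA2 (-1.95), TTR (-1.51), THRSP (-1.38), ELOVL7 (-1.34), MYL9 (-1.25) and ST6GALNAC1 (-1.20). The siNC levels of ACTA2, TTR and MYL9 were higher at 96 h than at 48 h, and the part this plays in the differences was not tested.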

How the results depend on the processing

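The number of genes changed by siPDIA5 at 96 h was 4091 when a mean RPKM of at least 5 was required (6493 genes tested) and 6094 with no filter, and 5322 to 5859 without any 1 library. The differences by time numbered 1528 to 2235, and 1694 to 2703 without any 1 library. The differences from siPDIA1 fell to 3775 with a mean RPKM of at least 5, where fewer genes were tested, and were 4962 to 5145 without any 1 library. PDIA5 ranged from -3.20 to -2.69, and from -2.80 to -2.68 without any 1 library. EFNB2 (siPDIA5 against siNC), which did not pass, was 0.0064 with a pseudocount of 0.25, 0.039 with median centring, 0.0064 with quantile normalisation, 0.021 after rescaling without mitochondrial genes, and -0.16 to 0.090 without any 1 library. MT-CO2 was -0.054 with quantile normalisation. The cause was not tested. Same-numbered libraries did not deviate together (r = 0.11, 0.03 and -0.03), and the labels name no shared batch. With a replicate block 5898 genes changed, 2008 differed by time and 5585 differed from siPDIA1, and PDIA5 was at -2.73. Of the values of named genes under the alternatives, 2545 kept their direction and their side of the threshold, 17 gained a call and 10 lost one. The number of reads limits genes near 1 RPKM.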
